A study of Mus musculus with 4 samples.

Results

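Slpi and 8 genes of the Wfdc series (Wfdc1, Wfdc2, Wfdc3, Wfdc8, Wfdc12, Wfdc17, Wfdc18 and Wfdc21) were followed in mouse lung, taking every probe whose gene name in the array files was one of these symbols. These 9 genes, of 27195 named on the array, were covered by 16 probes of 56605. The study removed the testes (ORX, read here as orchiectomy) or performed a sham operation in C57BL/6J mice, and gave porcine pancreatic elastase (PPE, the reading of the abbreviation that fits the elastase emphysema model in the title) or phosphate-buffered saline (PBS) by inhalation. Lung RNA was taken at 3 weeks. The PBS groups were sham/PBS and, with the testes removed, ORX/PBS; the PPE groups were likewise sham/PPE and ORX/PPE. Each was measured on 1 array with RNA pooled from 5 mice, so 4 arrays carry the whole study, the spread between mice is not visible, and no difference between 2 groups could be tested. The labels used here give neither the age of the mice nor the dose.

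These genes encode small secreted proteins built on the whey acidic protein (WAP) domain, a compact fold held by a core of 4 disulfide bonds. In the best known members an exposed loop of the domain occupies the active site of a serine protease. Slpi, the secretory leukocyte protease inhibitor, blocks neutrophil elastase and cathepsin G in this way on airway surfaces. Other WAP proteins are better known as secreted antibacterial or growth-modulating proteins, and for several no target protease is established. Elastase given into the lung is a standard way to produce emphysema in mice, and the enzyme given belongs to the class that several WAP proteins inhibit.

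The array reads these genes through 60-base probes, and 3 of the 16 probes hold a pair of neighbouring cysteine codons in an open reading frame with 4 or 5 cysteine codons. They are shown because they hold this pair and still differ from each other outside it. The probes were not placed on domain coordinates, so other probes may also lie on the WAP core. Capitals mark 2 neighbouring cysteine codons (TGC TGC) in an open reading frame, the cysteine pair typical of the WAP core. The Wfdc12 probe lies at chr2:164015895-164015954, and the Wfdc8 probes lie at chr2:164431300-164431359 and chr2:164424508-164424567, all on the minus strand of mouse build mm9 as given in the array files.
Wfdc12: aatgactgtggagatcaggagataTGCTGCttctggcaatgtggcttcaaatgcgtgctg
Wfdc8, brightest probe: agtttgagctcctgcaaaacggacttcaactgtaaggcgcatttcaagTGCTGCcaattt
Wfdc8, further probe: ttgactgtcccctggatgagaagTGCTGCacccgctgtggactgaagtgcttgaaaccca
Over the 36 pairs that the brightest probes of the 9 genes form, the longest shared stretch was 5 to 11 bases of 60. The remaining probes were not printed. The exon or untranslated part of the transcript in which each lies was not analysed here.

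On each of the 4 arrays, 20132 to 20912 of the 27195 genes were well above background. The 75th percentile of the processed signal, by which each array was scaled, lay between 829.788 and 999.154 intensity units. The labelled tissue was borne out by its markers: all 14 alveolar type 2 genes and all 16 club and airway secretory genes were above background on every array, among them the surfactant gene Sftpc (431 to 512 times the 75th percentile) and the club cell gene Scgb1a1 (391 to 462 times). The sham/PPE array also gave higher signals for genes of other tissues. The summed scaled signal of 12 cardiac muscle genes was 82.2 (sham) and 66.9 (ORX) on the PBS arrays, and 170 (sham) and 33.0 (ORX) on the PPE arrays, and that of 10 fat genes was 37.4 and 44.0 (PBS), and 67.3 and 30.0 (PPE). For 10 male germ cell genes the sums were 0.643 and 0.518 (PBS), and 3.22 and 0.515 (PPE). Against sham/PBS, 2 of the 12 cardiac genes, 5 of the 10 fat genes (1 as a bound) and 8 of the 10 germ cell genes (4 as bounds) were at least 2-fold higher there, as were 4 of the 7 liver genes measured on both arrays. Nppa, a heart atrium gene, was 3.00 higher on the log2 scale on sham/PPE than on sham/PBS, and the sperm protamine gene Prm1 was 5.86 higher. The part of this in the results below was not tested. The sham/PPE array enters PPE in sham and ORX under PPE, and does not enter PPE in ORX or ORX under PBS. Other-tissue genes also differed with PPE in ORX, where all 12 cardiac genes lay below 0 (median -0.97, 5 of them at least 2-fold lower). So did all 8 fat genes measured (median -0.48). Of 7 liver genes 3 were at least 2-fold lower (Alb, Serpina1a and Serpina1c). With normexp, another background correction, these had -0.72, -0.68 and -0.45, short of 2-fold. The liver gene Apoa1 was higher by a bound of 1.06 on the log2 scale. With ORX under PBS 0 genes of these 4 lists passed 2-fold.

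All 9 genes were well above background on all 4 arrays by their brightest probe. None of their 16 spots on an array was saturated or marked as an outlier. Levels are given as multiples of the array's 75th percentile, with the error that the scanner software assigns to the spot (close to 0.1 of the signal for bright probes). That error covers spots, not mice. It gave an error of about 0.20 on the log2 scale for a difference between 2 arrays, up to 0.29 for Wfdc8. Levels of different genes were not compared, because probes differ in how brightly they hybridize.

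Wfdc21 and Wfdc17 were the genes of the family with the largest rise under PPE. Wfdc21, also known as Wdnm1-like, encodes a small secreted WAP protein. Its scaled signal was 1.19 ± 0.119 (sham) and 1.95 ± 0.195 (ORX) on the PBS arrays, and 3.67 ± 0.367 (sham) and 4.08 ± 0.408 (ORX) on the PPE arrays. Both PPE arrays stood above both PBS arrays. PPE against PBS was 3.10-fold in sham (log2 difference 1.63) and 2.10-fold in ORX (log2 1.07), the only member past the 2-fold threshold on both. Among genes measured on both arrays it ranked 43 from the top of 19643 in sham and 67 of 19885 in ORX. The PPE difference in ORX passed the threshold (log2 of 1) by less than the spot error of 0.20. The ORX/PBS level was itself 1.64-fold that of sham/PBS (log2 0.71, spot error 0.20), and the 2 PPE arrays differed by 0.15, less than the spot error. The PPE difference in ORX minus that in sham was -0.56 with a spot error of 0.29.

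Wfdc17, known from activated microglia and macrophages as AMWAP, rose past 2-fold with PPE in sham and not in ORX. Its scaled signal was 1.18 ± 0.118 (sham) and 1.84 ± 0.184 (ORX) on the PBS arrays, and 2.67 ± 0.267 (sham) and 2.45 ± 0.245 (ORX) on the PPE arrays. The sham/PBS array was the low one, and the 2 PPE arrays differed by less than the spot error (log2 0.13 against 0.20). PPE against PBS was 2.26-fold in sham (log2 1.17) and 1.33-fold in ORX (log2 0.41). The sham value passed the 2-fold threshold (log2 of 1) by less than the spot error of 0.20. ORX against sham under PBS was 1.56-fold (log2 0.64). The difference between the PPE differences, -0.76 with a spot error of 0.29, did not reach 2-fold and could not be tested.

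**Figure D1:**
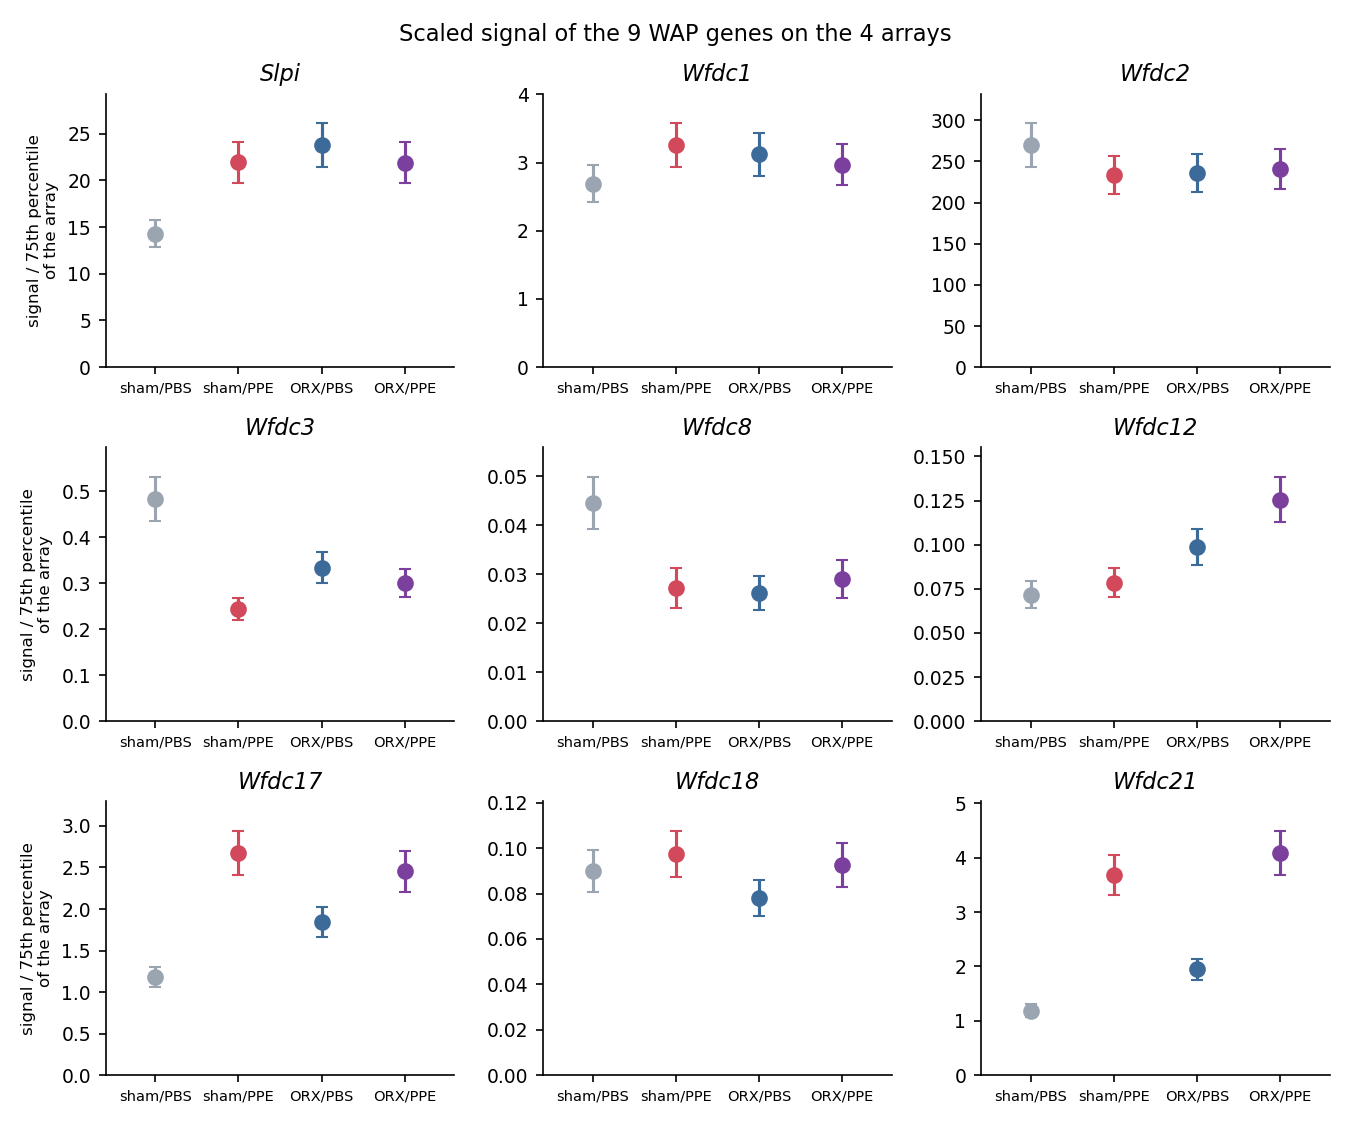
Scaled signal (processed signal divided by the array's 75th percentile, linear axis from 0, own scale per gene) of the 9 WAP genes on the 4 arrays. Each point is 1 array with RNA of 5 pooled mice, and bars are the scanner's error of the spot. Wfdc21 stands above both PBS arrays on both PPE arrays (3.67 and 4.08 against 1.19 and 1.95), while Slpi is low on sham/PBS alone (14.3 against 21.9 to 23.8).

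Slpi itself was low on 1 array. Its scaled signal was 14.3 ± 1.43 (sham) and 23.8 ± 2.38 (ORX) on the PBS arrays, and 21.9 ± 2.19 (sham) and 21.9 ± 2.19 (ORX) on the PPE arrays. Ranked by level, the upper 3 arrays did not differ from their neighbours by more than the spot error, and sham/PBS lay 0.61 below the nearest of them on the log2 scale. PPE against PBS was thus 1.54-fold in sham (log2 0.62) and log2 -0.12 in ORX. ORX against sham was 1.66-fold under PBS (log2 0.74) and log2 -0.00 under PPE. None of these reached 2-fold. The PPE difference in ORX minus that in sham was -0.74 with a spot error of 0.29.

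Wfdc2, known as HE4, is a WAP protein made by airway epithelium and the epididymis. Scaled signals read 270 ± 27.0 (sham) and 236 ± 23.6 (ORX) on the PBS arrays, and 233 ± 23.3 (sham) and 241 ± 24.1 (ORX) on the PPE arrays. No neighbours by level differed by more than the spot error, and the 4 log2 differences lay between -0.21 and 0.04. Wfdc1, the prostate stromal protein ps20, had scaled signals of 2.69 ± 0.269, 3.12 ± 0.312, 3.26 ± 0.326 and 2.97 ± 0.297 for PBS in sham and ORX and PPE in sham and ORX. Its log2 differences lay between -0.13 and 0.28, and again no neighbours by level were further apart than the spot error. The lowest and highest arrays differed by 0.21 for Wfdc2 and 0.28 for Wfdc1, against 0.20. The level of both genes therefore stayed within 1.21-fold in each of the 4 comparisons.

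Wfdc3 was the member with the lowest difference under PPE in sham. Scaled signals were 0.483 ± 0.0484 (sham) and 0.334 ± 0.0335 (ORX) on the PBS arrays, and 0.244 ± 0.0246 (sham) and 0.301 ± 0.0302 (ORX) on the PPE arrays. PPE against PBS was 1.98-fold lower in sham (log2 -0.98), just short of 2-fold, and log2 -0.15 in ORX. The sham difference ranked 64 from the bottom of 19643 genes. It was -0.74 with normexp background correction and -0.49 by the mean of all Wfdc3 probes. ORX against sham was -0.53 under PBS and 0.30 under PPE, in opposite directions. With normexp these were -0.44 and 0.20, the second against a spot error of 0.21.

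Wfdc8, whose protein carries several WAP domains, was near the floor of the measurement. Scaled signals were 0.0446 ± 0.00534 (sham) and 0.0261 ± 0.00350 (ORX) on the PBS arrays, and 0.0272 ± 0.00417 (sham) and 0.0291 ± 0.00387 (ORX) on the PPE arrays. Only sham/PBS stood apart from its neighbour by level by more than the spot error. Its PPE difference in sham was -0.71, and it was 0.02 when the background was corrected by another method (normexp), so that difference depends on the background correction.

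Wfdc12, known as SWAM2, was higher on both ORX arrays than on both sham arrays. Scaled signals read 0.0716 ± 0.00764 (sham) and 0.0987 ± 0.0101 (ORX) on the PBS arrays, and 0.0785 ± 0.00835 (sham) and 0.126 ± 0.0129 (ORX) on the PPE arrays. ORX against sham was 1.38-fold under PBS (log2 0.46) and 1.60-fold under PPE (log2 0.68). With normexp these differences were 0.18 and 0.28. Wfdc18, also known as WDNM1 or Expi, had scaled signals of 0.0899 ± 0.00934, 0.0781 ± 0.00806, 0.0975 ± 0.0101 and 0.0927 ± 0.00963 in that same order. No neighbours by level differed by more than the spot error, the lowest and highest arrays differed by 0.32 against 0.21, and its 4 log2 differences lay between -0.20 and 0.25. With normexp Wfdc18 turned from 0.12 to -0.05 with PPE in sham and from -0.07 to 0.11 with ORX under PPE.

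Counted together, 2 of the 9 genes (Wfdc17 and Wfdc21) were at least 2-fold higher with PPE in sham and 0 were lower. Over all genes 1.26% were higher and 0.451% lower by the same rule, which counts genes above background on at least 1 of the 2 arrays. With PPE in ORX 1 of 9 (Wfdc21) was higher and 0 lower, against 0.695% and 0.369% of all genes. Wfdc17 in sham and Wfdc21 in ORX passed by less than their spot error, and Wfdc3 in sham fell short by less than its own. ORX against sham gave 0 of 9 in either direction under PBS, where 0.585% of all genes were higher and 1.26% lower, and 0 of 9 under PPE, where the shares were 0.322% and 1.41%. No member's PPE difference changed by 2-fold or more between ORX and sham, against 2.92% of genes measured on all 4 arrays. At 1.5-fold in either direction and over genes measured on both arrays, 5 of 9 passed with PPE in sham (Slpi, Wfdc17 and Wfdc21 higher, Wfdc3 and Wfdc8 lower), where 7.36% of all genes did, and 1 of 9 in ORX (4.48%). With ORX 4 of 9 passed under PBS (Slpi, Wfdc17 and Wfdc21 higher, Wfdc8 lower; 7.99% of all genes) and 1 of 9, Wfdc12, under PPE (5.44%). For the difference between the PPE differences it was 4 of 9 (11.7%). The median difference of the 9 genes was 0.13, 0.16, 0.21 and 0.04 in the 4 comparisons as ordered above, beside 0.02, 0.00, -0.01 and -0.01 for all genes. With PPE 6 of 9 were above 0 in sham and 6 of 9 in ORX, beside 52.9% and 50.2% of all genes measured on both arrays. The comparisons of PPE share arrays with those of ORX: a low sham/PBS value alone raises PPE in sham and ORX under PBS together, and sham/PBS was the lowest of the 4 arrays for 5 of the 9 genes and for 31.3% of the 19320 genes measured on all 4.

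**Figure D2:**
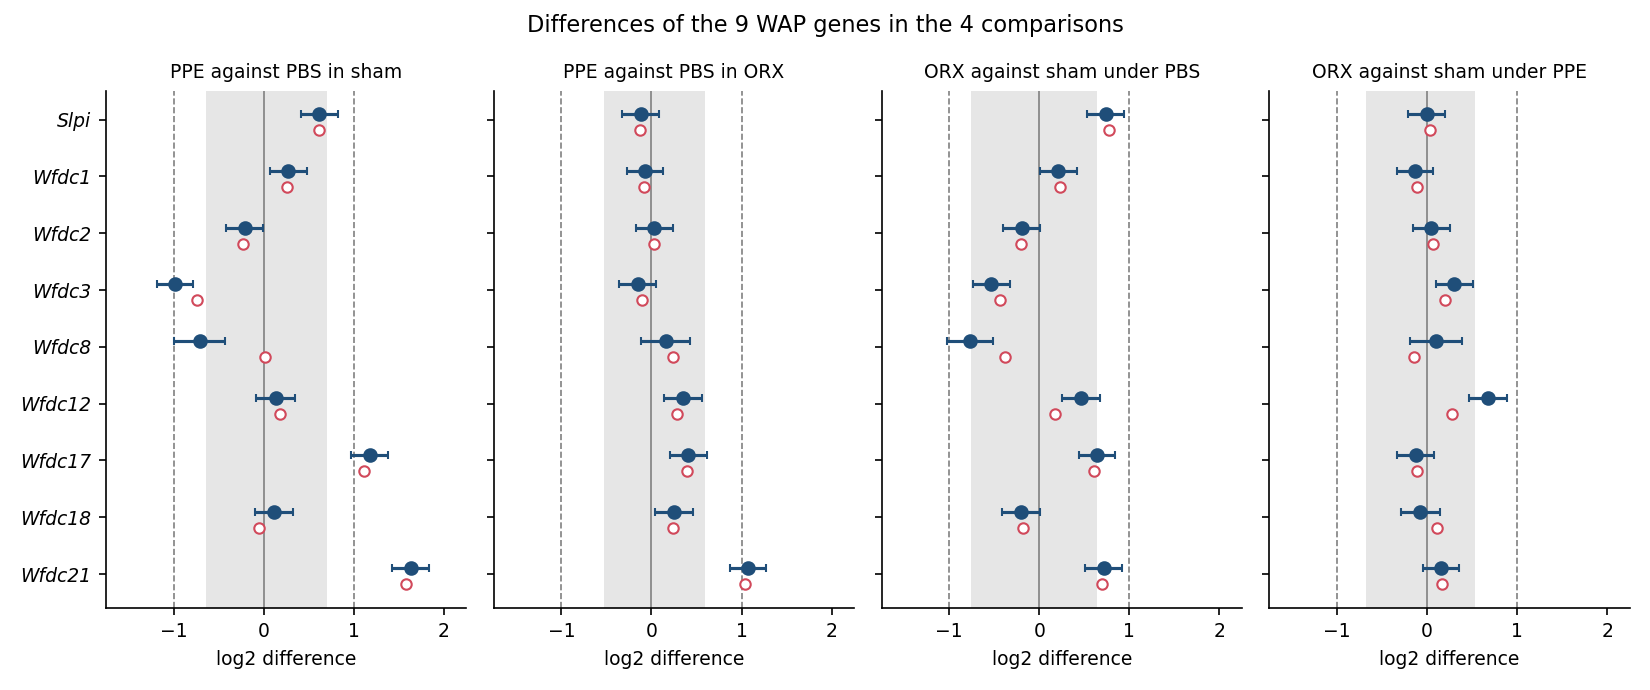
Log2 difference of each WAP gene in the 4 comparisons (filled points, with the spot error of the difference) and the same with normexp background correction (open circles). The grey band holds the central 95% of all genes measured on both arrays, and dashed lines mark 2-fold. Wfdc21 passes 2-fold in both PPE panels and Wfdc17 in sham only, while Wfdc8 moves from -0.71 to 0.02 in the first panel.

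An additive model of surgery and agent, fitted with limma over 20656 genes and 4 arrays, gave the only p-values. It treats the PPE difference as equal in sham and ORX and has 1 residual degree of freedom per gene. Wfdc21 had a PPE difference of 1.35 (SE 0.192) and an adjusted p of 0.751 (limma, Benjamini-Hochberg), with PPE above PBS in both surgeries. Wfdc17 had 0.79 (SE 0.233) and an adjusted p of 0.851 by limma. For ORX the lowest adjusted p among the members was 0.580 by limma, for Wfdc12 at 0.57 (SE 0.138). No gene of the 20656 passed an adjusted p of 0.05 for either factor (0% called), and 1161 genes (5.62%) for PPE and 1638 (7.93%) for ORX had an unadjusted p under 0.05. Among those were Wfdc21 (limma p 0.00253) and Wfdc17 (limma p 0.0293) for PPE, and Wfdc12 (limma p 0.0161) for ORX.

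The probes of a gene did not always move together. Slpi, Wfdc3 and Wfdc8 had 3 probes each, Wfdc1 had 2, and the other 5 genes had 1. Both Wfdc1 probes gave the same picture, with PPE in sham at 0.28 and 0.32, and PPE in ORX at -0.07 and -0.11. The further Slpi probe that was above background on all 4 arrays read 57.5 and 76.0 intensity units on the PBS arrays (sham, ORX) and 67.1 and 72.6 on the PPE arrays, against 12186 to 23761 for the brightest. It gave 0.26 for PPE in sham and 0.15 in ORX, where the brightest probe gave 0.62 and -0.12. For ORX under PBS it gave 0.17, within its spot error of 0.22, and -0.03 with normexp, against 0.74 for the brightest. The remaining Slpi probe was well above background on ORX/PBS only, and with it in the mean of the 3 probes PPE in sham was -0.09. Of the further Wfdc3 probes, one gave -0.56 with PPE in sham and one gave 0.08. With normexp the first gave -0.18, within its spot error of 0.22. The 3 Wfdc8 probes gave -0.71, -0.39 and 0.07 with PPE in sham, and -0.77, 0.43 and -0.58 for ORX under PBS, so no direction was read for Wfdc8. Wfdc17 and Wfdc21 rest on 1 probe each.

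**Figure D3:**
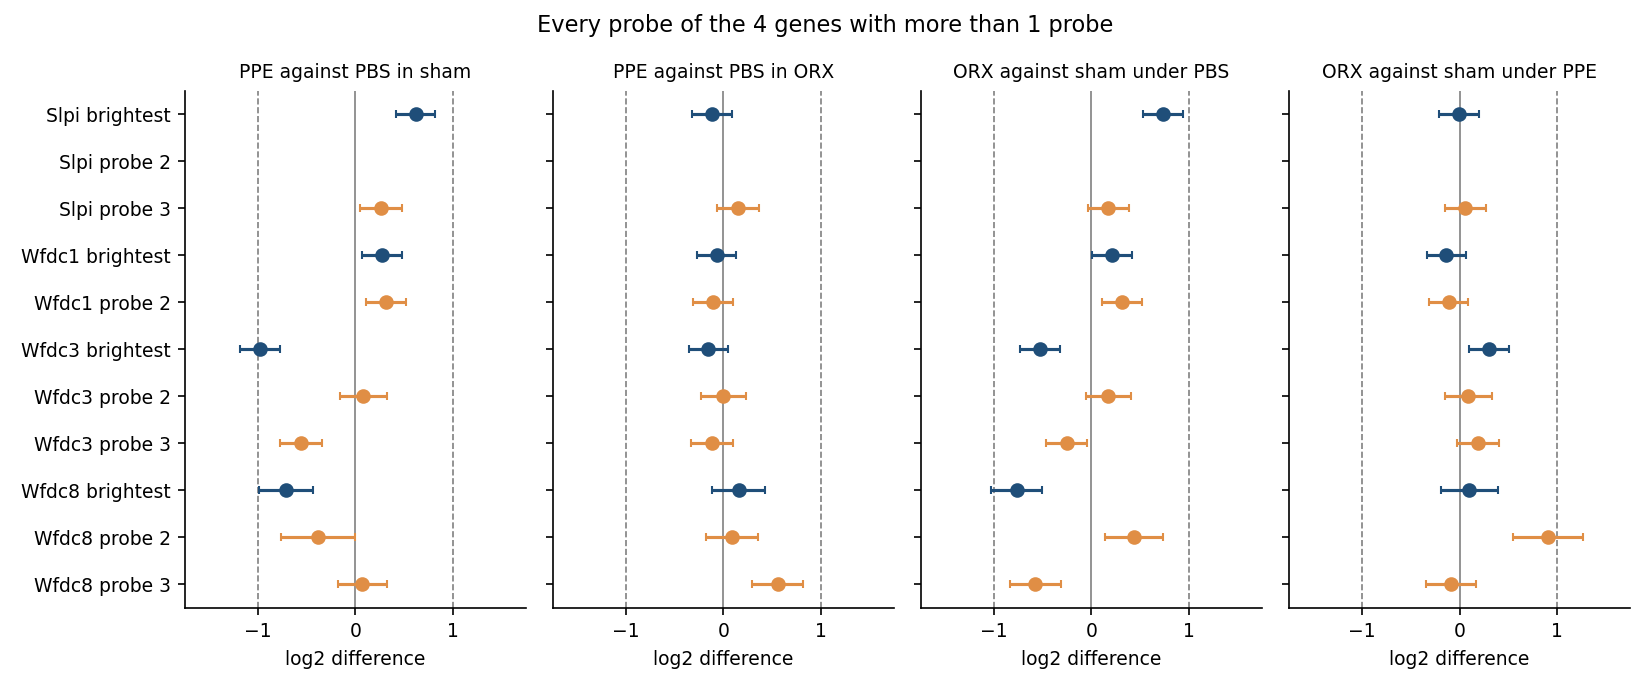
Log2 difference, with spot error, of every probe of Slpi, Wfdc1, Wfdc3 and Wfdc8 in the 4 comparisons, where the probe was well above background on both arrays. The brightest probe is dark blue and the others are orange; the Slpi probe with no point was well above background on 1 array only. The Wfdc1 probes lie together, and those of Wfdc8 fall on both sides of 0.

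Genes of serine proteases that WAP inhibitors bind, or that act beside them, showed no like rise in RNA with PPE. Protease protein and activity were not measured. Of 15 serine proteases, 11 were measured on both arrays, and with PPE 0 of the 11 passed 2-fold in sham or in ORX (medians -0.06 and -0.14). Elane, the neutrophil elastase gene, had scaled signals of 0.831 and 0.790 on the PBS arrays (sham, ORX) and 0.838 and 0.702 on the PPE arrays, a difference of 0.01 with PPE in sham and -0.17 in ORX. The cathepsin G gene Ctsg was well above background on ORX/PBS only. The highest and lowest of the list with PPE in sham were both mast cell proteases, Mcpt4 at 0.74 and Tpsb2 at -0.34. With ORX under PBS the chymase gene Cma1 was the one protease past 2-fold (log2 1.08), and with normexp it was 0.78, short of 2-fold.

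The list made for other serine protease inhibitors goes by family, and inhibition was not checked for each gene. Its genes stayed short of 2-fold. The alpha-1 antitrypsin genes Serpina1a and Serpina1c, held in the liver list instead, passed it. With PPE in sham they had 2.23 and 1.98, and in ORX -1.74 and -1.40 (-0.68 and -0.45 with normexp). With ORX under PPE they had -3.39 and -3.06. Of the 7 liver genes measured, 4 were at least 2-fold higher with PPE in sham: these 2, Ahsg and Alb. The same 4 were at least 2-fold lower with ORX under PPE, and the other 3 passed 2-fold in neither. The sham/PPE array enters both comparisons and also gave higher signals for genes of other tissues. The part of those signals in Serpina1a and Serpina1c was not tested. Of the 18 serpins, Kunitz and related proteins in the inhibitor list, 17 were measured on both arrays. In each of the 4 comparisons 0 of the 17 passed 2-fold. The median was 0.20 with PPE in sham and 0.01 in ORX. Itih4, a chain of the inter-alpha-trypsin inhibitor family, was the highest with PPE in sham at 0.74, and Spint2, a membrane-bound Kunitz inhibitor, was the lowest at -0.24. Serpinb1a, an intracellular inhibitor of neutrophil serine proteases, was the highest with ORX under PBS at 0.95 and lay at 0.46 with PPE in sham. Of 16 further WAP genes, 3 were not well above background on any array, and 9 were on all 4. None of the 9 or 10 measured on both arrays passed 2-fold with PPE, and Eppin, a sperm-surface protein with a WAP and a Kunitz domain, was the highest in sham at 0.88. Wfdc16 was the only one past 2-fold with ORX under PPE (log2 -1.55, and -0.80 with normexp).

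Markers of leukocytes moved with PPE beside Wfdc17 and Wfdc21. In these whole-lung samples more cells of a type and more RNA per cell cannot be told apart. Of 15 neutrophil genes on the array, 10 were at least 2-fold higher with PPE in sham (1 of them as a bound) and 1 in ORX. The median of the 13 measured on both arrays was 1.39 in sham, and that of the 15 measured in ORX was 0.16. S100a8, a calcium-binding protein abundant in neutrophils, had log2 differences of 2.35 (sham) and 0.32 (ORX). In ORX 11 of the 15 neutrophil genes lay above 0 and 4 below, the lowest being Ltf at -0.81, which the club and airway list also holds. Of 18 macrophage genes 6 passed 2-fold upward in sham and 5 in ORX, with medians of 0.81 and 0.17. One of the 6 in sham, Fabp4 (1.16, and -0.37 in ORX), is also in the fat list. All 18 macrophage genes lay above 0 in sham, and in ORX 12 lay above 0 and 6 below. The scavenger receptor gene Marco was the highest of them in both (1.80 and 2.30), and Chil3, a chitinase-like protein of alveolar macrophages, was 1.03 higher in each.

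The summed scaled signal of the 18 macrophage genes rose from 84.0 on sham/PBS through 115 on ORX/PBS and 152 on sham/PPE to 170 on ORX/PPE. That of the 15 neutrophil genes was 100.03, 121, 148 and 205 on sham/PBS, ORX/PBS, ORX/PPE and sham/PPE. Such sums weight genes by probe brightness. Chil3 was the largest macrophage term on each array, with 65.3 on sham/PPE and 82.6 on ORX/PPE. Among the neutrophil genes S100a9 rose from 23.4 on sham/PBS to 92.0 on sham/PPE, while Csf3r lay between 47.2 and 52.6 throughout. Taken gene by gene, 16 of 18 macrophage and 9 of 13 neutrophil genes lay above 0 with ORX under PBS. Both sums, like Wfdc17 and Wfdc21, were lowest on sham/PBS, next on ORX/PBS and higher on the PPE arrays. The PPE arrays differed by less than the spot error for either WAP gene, so neither gene's order there can be set beside one list rather than the other. The part of either cell type in the WAP genes was not tested. Of 10 monocyte genes 0 passed 2-fold with PPE in either surgery, with medians of 0.36 and -0.08. The epithelial lists lay on different sides of 0 with PPE. Of 16 club and airway secretory genes 12 lay below 0 with PPE in sham and 12 in ORX (medians -0.26 and -0.14), and Bpifa1, a secreted airway protein, stood at -0.38 and -0.87. Of 14 alveolar type 2 genes 1 passed 2-fold in sham (Lcn2, a lipocalin that the neutrophil list also holds, at 1.25) and 0 in ORX, but 14 of 14 lay above 0 in sham and 12 of 14 in ORX (medians 0.32 and 0.10). Of 12 smooth muscle and mesenchymal genes 0 passed in either.

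**Figure D4:**
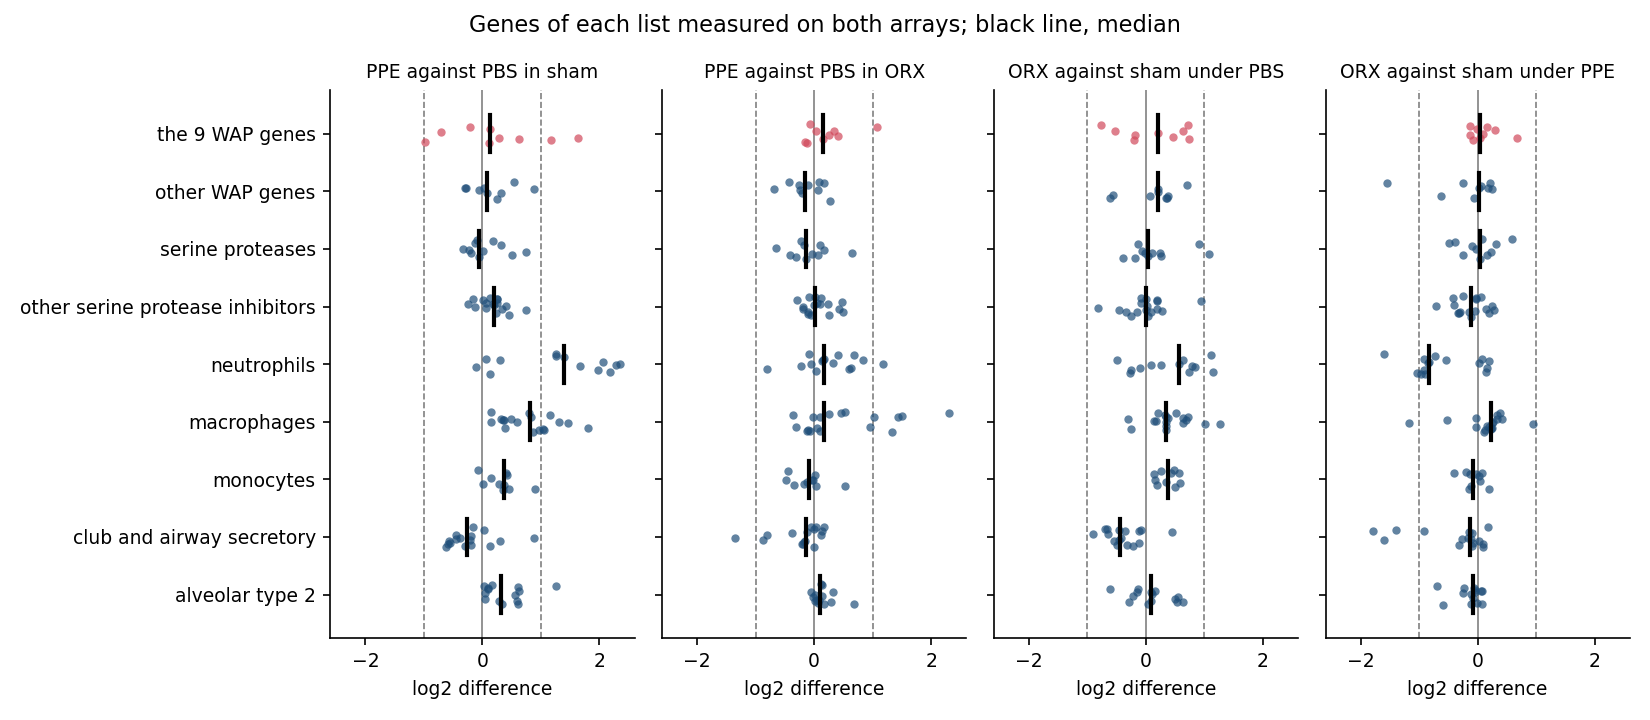
Log2 difference of each gene of 9 lists measured on both arrays, in the 4 comparisons; red points are the 9 WAP genes, blue points are genes of the other lists, black lines are list medians and dashed lines mark 2-fold. With PPE in sham the neutrophil and macrophage medians stand at 1.39 and 0.81 and that of the WAP genes at 0.13; in ORX they are 0.16, 0.17 and 0.16.

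Several of these genes carry names from the male tract, where androgen acts, and ORX removes the source of most androgen. Of 15 epididymal and accessory gland genes, 3 to 6 were well above background on an array, and Crisp1, an androgen-dependent epididymal gene, was on none. The cystatin gene Cst8 was the lowest of them in each of the 4 comparisons, at -0.39 with PPE in sham and -1.08 with ORX under PPE. The 3 genes measured with PPE in sham all lay below 0. So did the 3 measured with ORX under PBS, from -0.68 for Cst8 to -0.32 for Spink2 (median -0.38). With ORX under PPE 2 of 4 lay above 0, Bsph1 being the highest at 0.92 (-0.01 with normexp), and Pate4 was higher by a bound of 2.42 on the log2 scale. The differences of Wfdc2 and Wfdc1 with ORX lay between -0.19 and 0.21.

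The members lie in clusters. Wfdc17, Wfdc18 and Wfdc21 are neighbours on chromosome 11, with probes at chr11:83518443-83519627 (the range the array files give for the Wfdc17 probe), chr11:83524731-83524790 and chr11:83566028-83566087 in build mm9. Slpi, Wfdc2, Wfdc3, Wfdc8 and Wfdc12 lie on chromosome 2, and Wfdc1 on chromosome 8. On chromosome 11 Wfdc18 lay between the genes that passed 2-fold and had 0.12 with PPE in sham (-0.05 with normexp) and 0.25 in ORX. Of 8 other genes around the cluster, 1 passed 2-fold with PPE in sham: the chemokine gene Ccl6 (log2 1.39, and 0.89 in ORX). The other 3 chemokine genes of the stretch, Ccl9, Ccl3 and Ccl4, had 0.35, 0.14 and -0.27 with PPE in sham, and the median of the 8 was 0.19. On chromosome 2, 26 other genes lie between Wfdc12 and Wfdc3. With PPE in sham 14 of them could be compared, and 1 passed 2-fold, Trp53tg5, as a bound of 2.16 on the log2 scale against an array where it was not well above background. With ORX under PPE Trp53tg5 had a bound of -2.11. Both bounds rest on the sham/PPE array, which also gave higher signals for genes of other tissues. The part of those signals in Trp53tg5 was not tested.

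The sequences before the start sites of Wfdc17 and Wfdc18 are shown because these neighbours share a stretch of promoter. With PPE, Wfdc17 and Wfdc18 had 1.17 and 0.12 in sham, and 0.41 and 0.25 in ORX, where the gap is within their spot errors of 0.20 and 0.21. No test of the gap was made. Each line is the 250 bases upstream of the gene's RefSeq start, in build GRCm38.p6, at chr11:83703806-83704055 for Wfdc17 and chr11:83708754-83709003 for Wfdc18, both on the plus strand. Capitals mark an aligned block of 112 columns, of which 82 (73.2%) are identical. The block ends 29 bases before the Wfdc17 start, whereas for Wfdc18 only its first 56 bases lie before the start and the rest runs on past it.
Wfdc17: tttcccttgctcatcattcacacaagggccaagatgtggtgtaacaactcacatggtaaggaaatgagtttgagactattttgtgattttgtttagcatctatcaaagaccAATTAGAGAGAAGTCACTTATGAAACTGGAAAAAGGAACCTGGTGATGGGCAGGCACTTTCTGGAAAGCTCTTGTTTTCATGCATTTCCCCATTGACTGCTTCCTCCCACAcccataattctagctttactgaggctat
Wfdc18: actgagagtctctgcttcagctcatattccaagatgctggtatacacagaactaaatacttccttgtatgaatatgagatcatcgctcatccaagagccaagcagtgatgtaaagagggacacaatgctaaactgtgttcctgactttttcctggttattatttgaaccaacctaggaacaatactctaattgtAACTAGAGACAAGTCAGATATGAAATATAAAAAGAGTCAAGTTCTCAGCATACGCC
A TATA match (TATAAA, searched on both strands) starts 31 bases before the Wfdc18 start, inside the block. The Wfdc17 window held none. Of all 32851 RefSeq windows of the same 250 bases, 12.4% held that match.

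The Slpi promoter is shown as that of the family's best known elastase inhibitor, 250 bases at chr2:164356508-164356757, minus strand, build GRCm38.p6, with a C/EBP-type match in capitals.
Slpi: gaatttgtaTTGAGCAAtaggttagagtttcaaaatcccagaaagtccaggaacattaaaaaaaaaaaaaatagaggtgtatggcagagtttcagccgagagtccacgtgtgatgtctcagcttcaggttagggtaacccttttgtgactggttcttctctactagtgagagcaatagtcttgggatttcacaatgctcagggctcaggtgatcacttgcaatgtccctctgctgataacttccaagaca
The match is to TTGCNNAA read on the opposite strand, 241 bases before the start. It was found in the windows of Slpi and Wfdc12, and in 9.56% of all windows. For 7 of the 9 members a window was in the RefSeq table. None of their windows held the searched forms of the NF-kB site (3.9% of all windows), AP-1 (TGANTCA, 6.75%), PU.1 (GAGGAAGT, 2.44%) or the core repeat unit of the androgen response element (AGAACA, 16.1%), each searched on both strands.

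The genes most like Wfdc17 and Wfdc21 across the 4 arrays were found by the Euclidean distance of log2 profiles centred on their own mean, among 19319 genes above background on all arrays. For Wfdc17 they were Rufy4 (distance 0.0151), Fam181b (0.0635) and Gm9099 (0.119). Rufy4 had 1.16 with PPE in sham and 0.40 in ORX, beside 1.17 and 0.41 for Wfdc17. For Wfdc21 they were Clec4n (0.212), Ccl6 (0.215) and Trem2 (0.221). Clec4n had 1.48 with PPE in sham and 0.83 in ORX, and Trem2, one of the macrophage list, had 1.47 and 1.34. Each distance rests on 4 arrays and is a description.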

How the data were processed

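Lung RNA of 4 pools was labelled with Cy3 and hybridized to 4 Agilent 1-colour arrays of design 074809, per the file headers and the labels' protocols. The scanner files deposited hold a processed intensity (background-subtracted, spatially detrended, linear, with no scaling between arrays) and the mean and background intensity of each spot. The file headers give version 10.7.1.1 of the Feature Extraction software. The submitters' processing notes name version 9.5.1.1. The deposited value table holds linear intensity values of scale unstated in the sources used here; each column had a median of 71.5, and quantile scaling of the scanner signals came within a median of 0.0036 of its log2 values. Marks for background, saturation and outliers are per the file headers.

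Control spots and outlier spots were left out, spots of a probe were averaged, and log2 of the processed signal minus each array's 75th percentile was taken. A gene was represented by its brightest unsaturated probe, and called at 2-fold where well above background on both arrays compared, or by a bound where on 1. No test between single arrays was made. The additive model was fitted in limma (lmFit, eBayes; limma 3.58.1, run under R 4.3.3), and p was adjusted by Benjamini-Hochberg over genes above background on at least 2 arrays. Tables and plots were made in Python 3.11.15 (pandas 2.3.3, matplotlib 3.10.9).

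The members, the gene lists and the comparisons were chosen with earlier results of these data known. Named genes are all members, the 3 nearest profiles of each member past 2-fold, and the highest and lowest of a list described. To these come 11 set marker and protease genes. Some further list genes, among them Serpina1c, Apoa1, S100a9 and Pate4, were named after their values were seen. Genes beside the members on a chromosome were named for position, after their values were seen. Alternatives were normexp background correction (offset 50), quantile and median scaling, the value table, the mean of all probes, filters on dim probes, kept outlier spots and other thresholds. Protein sequences were not used here.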

Additional observations from a re-analysis of the deposited data

Results flagged for a closer look

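Wfdc3 was marked because its 2 differences between ORX and sham went opposite ways. ORX against sham was -0.53 under PBS and 0.30 under PPE on the log2 scale, each from 1 array against 1 array. The difference between them was not tested. With normexp the values were -0.44 and 0.20, the second against a spot error of 0.21. Of the further Wfdc3 probes, one gave -0.26 and 0.19 and the other 0.17 and 0.09. All but -0.26 lay within their spot errors. With normexp they gave -0.20 and -0.004, and -0.09 and -0.11.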

How the results depend on the processing

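The counts of members past 2-fold were the same under normexp, quantile scaling, median centring, the value table, the mean of all probes, both other filters on dim probes and kept outlier spots. A 1.5-fold threshold gave 5 members for PPE in sham (7.36% of genes measured on both arrays), 1 for PPE in ORX, 4 for ORX under PBS (7.99%), 1 for ORX under PPE (5.44%) and 4 for the difference of PPE differences (11.7%). The additive model called 0 members and 0 genes under each alternative, and the lowest adjusted p of a member by limma ranged from 0.142 to 0.844 for PPE and from 0.321 to 0.765 for ORX. Of 36 member differences, 5 moved by more than the spot error with normexp and 7 with the mean of all probes, and 0 under each of the other 6 alternatives that were tried. A change of sign was seen for 5 with normexp and for 2 each with the mean of all probes, quantile scaling and the value table. Slpi with PPE in sham was -0.09 by the mean of its 3 probes. No paired analysis was possible because each group has 1 array. Wfdc3 with PPE in sham moved from -0.98 to -0.74 with normexp. Dim spots limit Wfdc8, Wfdc12 and Wfdc18, and a single pool per group limits every value.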
